A study of Homo sapiens with 6 samples.

Results

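The transcripts of 10 genes known as immune checkpoint ligands of tumor cells, or as close relatives of them, were examined in MDA-MB-453 cells with and without *DUSP6* siRNA. The 10 genes were picked by name, and every one had a row among the 22807 genes of the table. They were *CD274*, *PDCD1LG2*, *CD276* and *VTCN1* of the B7 family, the nectin-type ligands *PVR* and *NECTIN2*, and *LGALS9*, *CD47*, *TNFRSF14* and *IDO1*. RNA came from 6 libraries of this established HER2+ breast cancer cell line, 3 transfected with *DUSP6* siRNA and 3 with scrambled siRNA, the control. *DUSP6* encodes a phosphatase that removes phosphate from ERK. All 6 libraries were grown in the same serum-supplemented medium and transfected with the same lipid reagent, and 300 ng of RNA went into each. The study used different siRNAs within each group. The labels do not tie an siRNA to a library, so the 3 libraries per group served as replicates, and p-values measure only the spread between them. With 1 cell line and no host immune cells, the data hold transcript levels of the tumor cells and no interaction with a T cell, an NK cell or a macrophage.

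Checkpoint ligands sit on the surface of a tumor cell and bind receptors on immune cells that restrain their attack. The ligand PD-L1, made from *CD274*, engages PD-1 on T cells and is a well-known target of interferon signaling through JAK kinases and IRF1. CD47 signals to macrophages not to engulf the cell, PVR and nectin-2 bind the receptors TIGIT and CD226 on T and NK cells, and IDO1 is not a ligand but an enzyme that degrades tryptophan to kynurenine.

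The recovered read totals were 56542154 to 85729785 per library with scrambled siRNA and 45546981 to 75642792 with *DUSP6* siRNA. A normalized value is a number of reads relative to the scaled library size, on a linear scale, and 1 read was worth 0.0121 to 0.0202. *DUSP6* itself was lower by limma (log2 fold change -2.05, standard error (SE) 0.25, adjusted p = 3.09e-04). Of the 12 markers of luminal and apocrine breast cancer cells, 12 passed the filter described below. Of these, 9 were lower, 1 higher and 2 not called, beside 24.7% of all genes tested called lower and 19.7% higher. Over the alternatives given below, 8 to 9 of them were lower and 0 to 2 higher. The summed value of the 12 markers was 7206 to 8906 with scrambled siRNA and 4564 to 5035 with *DUSP6* siRNA. Of 15 leukocyte markers, 10 were in the table, with a summed value of 5.57 to 6.74 against 5.01 to 6.999, nearly all of it *CD68*, and the pan-leukocyte gene *PTPRC* stayed at or under 0.0809 in every library. The 5 endothelial markers summed to at most 0.479. Among the fibroblast markers in the table, *COL1A1* alone had a mean value of at least 1, at 92.2 with scrambled siRNA and 173 with *DUSP6* siRNA. The cells thus carried the markers of the labeled tumor cell line, and the defining leukocyte marker was near 0. The part of the lower luminal markers and of the higher *COL1A1* in the results that follow was not tested. In bulk RNA, fewer cells expressing a gene and less RNA of it per cell cannot be told apart.

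For each gene, limma compared the groups on log2(value + 1), which understates the fold change of low genes, and p-values were adjusted by the Benjamini-Hochberg method over the 12862 genes whose mean value reached 1. A gene was called at an adjusted p under 0.05. Of the 10 checkpoint genes, 5 passed this filter and 5 did not. Among the 5 tested, *CD274* and *CD47* were higher with *DUSP6* siRNA, 2 genes beside a background of 19.7% of all genes called higher. *VTCN1* and *PVR* were lower, 2 genes beside a background of 24.7% called lower. *NECTIN2* was not called. *CD274* stood just above the filter, with a mean of 1.06 over the 6 libraries, and it passed only through the *DUSP6* siRNA group, where it was high; its mean without any 1 of these libraries was 0.831 to 0.957. *CD276*, with a mean of 0.708, stood just below the filter. The members that passed are therefore described one by one, and their counts are no measure of the group. To reach the 5 genes under the filter, edgeR was also run on the recovered reads of all 22807 genes, an alternative chosen after the values had been seen. It called 3 checkpoint genes higher, *LGALS9* being the one added, beside a background of 14.2%, and 2 lower beside a background of 15.7%.

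**Figure D1:**
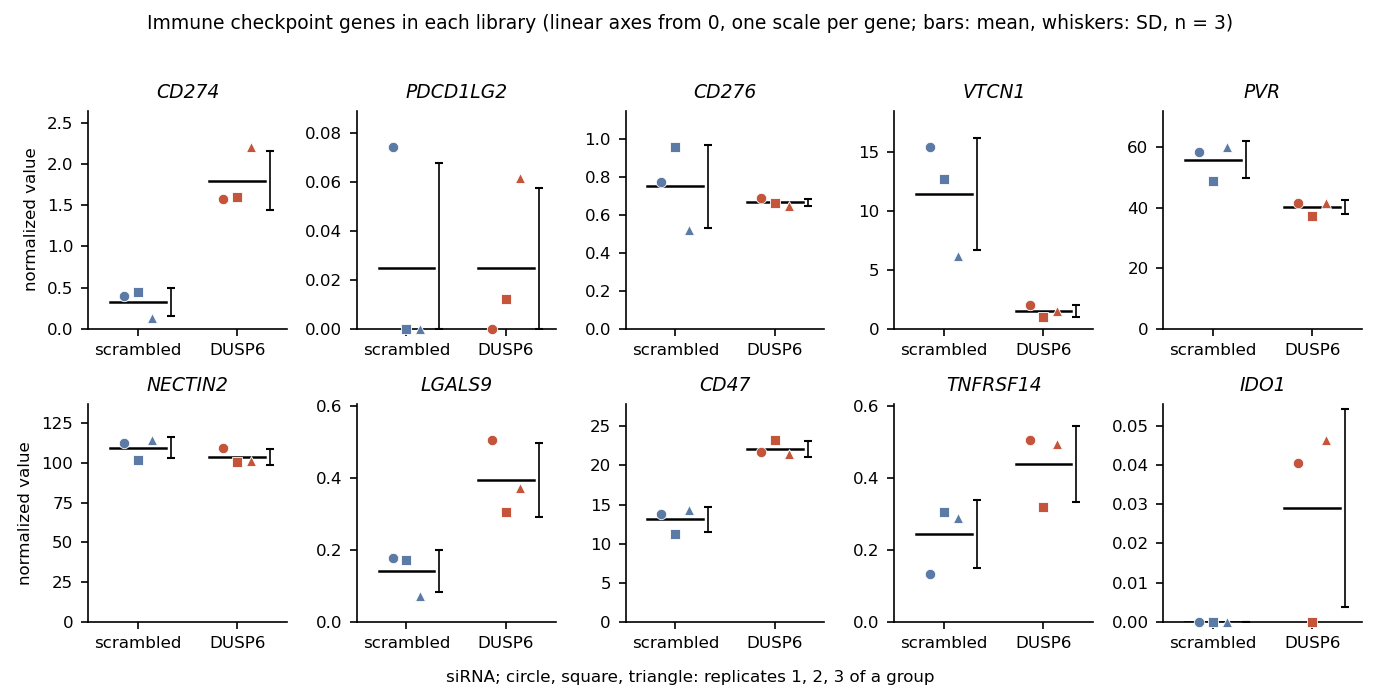
Normalized value (linear axes from 0, a separate scale for each gene) of the 10 checkpoint genes in the 3 scrambled siRNA libraries (blue) and the 3 *DUSP6* siRNA libraries (red). Bars are means and whiskers are 1 SD (n = 3), drawn no lower than 0. The groups do not overlap for *CD274*, *VTCN1*, *PVR*, *LGALS9*, *CD47* and *TNFRSF14*, and *PDCD1LG2* and *IDO1* rest on a few reads. The share of all genes without overlap is not given here, so the separation describes each gene and is no measure of the group.

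The genes differed widely in level, which was compared per kilobase of the reference (MANE Select) transcript of GENCODE on hg38. With scrambled siRNA the normalized value per kilobase was 40.8 ± 2.46 (SD, n = 3) for *NECTIN2*, 9.63 ± 1.06 for *PVR*, 4.40 ± 1.83 for *VTCN1* and 2.47 ± 0.309 for *CD47*. The libraries of *VTCN1* and *CD47* overlapped, so these neighbors in the order did not differ beyond their spread. The other 6 genes were at or under 0.228 per kilobase, from *CD276* over *TNFRSF14*, *CD274* and *LGALS9* to *PDCD1LG2* and *IDO1*. Within this low group, *CD276* overlapped *TNFRSF14*, *TNFRSF14* overlapped *CD274* and *CD274* overlapped *LGALS9*. With *DUSP6* siRNA, *CD47* followed *PVR* at 4.18 ± 0.186 per kilobase and stood above *VTCN1* at 0.573 ± 0.194, with no overlap between these 2 genes. *CD274*, at 0.494 ± 0.0985 per kilobase, then overlapped *VTCN1*, while *NECTIN2* and *PVR* kept the first places. Even after its rise, *CD274* remained among the low transcripts of the group.

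**Figure D2:**
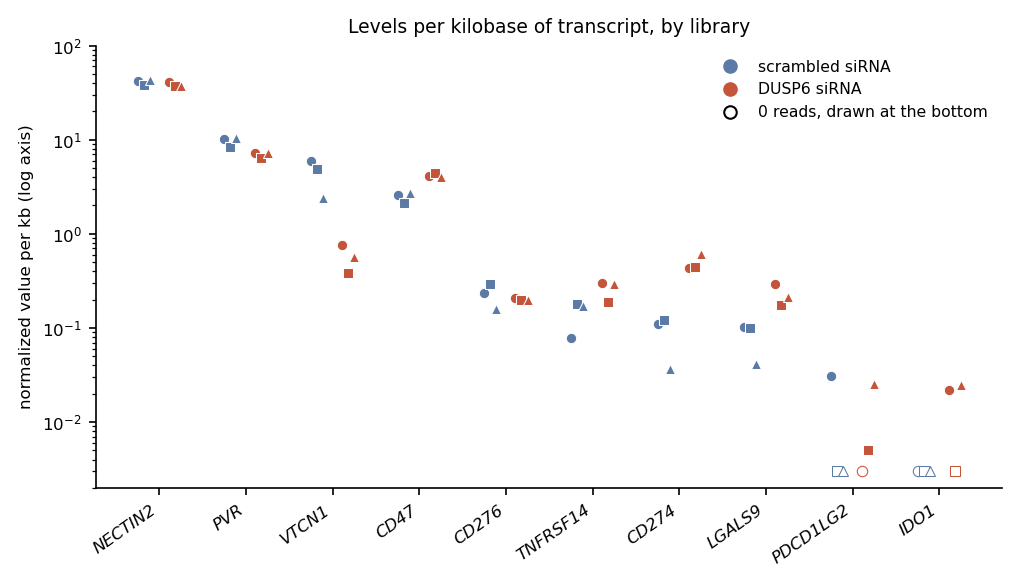
Normalized value per kilobase of transcript (log axis) of each checkpoint gene by library, in the order of the scrambled siRNA means, with circles, squares and triangles for replicates 1 to 3. *CD47* and *VTCN1* change places between the groups, and libraries with 0 reads are drawn as open symbols at the bottom.

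*CD274* (Entrez gene 29126, chromosome 9 of GRCh38 from 5450542 to 5470554, plus strand) encodes PD-L1, the ligand of PD-1 on T cells. The normalized value was 0.402, 0.441 and 0.133 in replicates 1 to 3 with scrambled siRNA and 1.58, 1.60 and 2.21 in those with *DUSP6* siRNA. These values rest on 27, 23 and 11 reads and on 78, 131 and 143 reads. Every *DUSP6* siRNA library was above every scrambled siRNA library, and scrambled siRNA replicate 3 was the lowest of the 6. The mean rose from 0.325 ± 0.168 to 1.80 ± 0.358 (SD, n = 3 each), a 5.53-fold ratio of the means. The limma log2 fold change of value + 1 was 1.08 (standard error 0.14, 95% interval 0.76 to 1.40, adjusted p = 4.34e-04). Because 1 is added to such low values, this is smaller than the edgeR log2 fold change of 2.52 on the reads of all genes (adjusted p = 8.54e-06). A two-sided exact permutation test over the libraries gave p = 0.1, and 3 libraries against 3 cannot go lower.

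The promoter of *CD274* is shown because the gene had the largest rise of the checkpoint genes tested and is a known interferon target. Promoter windows of 250 bases before to 50 after the transcription start were taken from RefSeq on GRCh38.p14. They were at hand for 8 of the 10 genes, in 9 windows, 9 of which matched the hg38 genome. The windows were searched on both strands for the core of the interferon-stimulated response element (ISRE, GAAA and GAAA 2 bases apart), the core of the gamma-activated site (GAS, TTCNNNGAA) and the NF-kB consensus. The 250 bases before the start are printed 5′ to 3′ on the strand of the gene, with matches in capitals. For *CD274* this is chr9:5450292-5450541 (plus strand), with the capitals marking first a pair of overlapping ISRE cores on the opposite strand and then a GAS core. For *LGALS9*, the gene under the filter that edgeR called higher, it is chr17:27630938-27631187 (plus strand). There the capitals mark an ISRE core on the opposite strand that runs into the first transcribed base. The value of *LGALS9* is uncertain, as described further below.
CD274: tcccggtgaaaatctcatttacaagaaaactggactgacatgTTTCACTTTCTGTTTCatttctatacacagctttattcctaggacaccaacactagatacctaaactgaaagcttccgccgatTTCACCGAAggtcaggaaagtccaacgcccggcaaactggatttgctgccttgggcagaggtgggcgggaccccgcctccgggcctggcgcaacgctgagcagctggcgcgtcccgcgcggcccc
LGALS9: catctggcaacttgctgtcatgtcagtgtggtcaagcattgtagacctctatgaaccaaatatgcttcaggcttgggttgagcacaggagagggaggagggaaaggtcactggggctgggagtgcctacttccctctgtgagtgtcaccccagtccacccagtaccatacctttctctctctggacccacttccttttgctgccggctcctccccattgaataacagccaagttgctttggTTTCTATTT

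The ISRE cores of *CD274* lie from -208 to -199 and from -202 to -193, and its GAS core from -125 to -117, counted with 0 at the start. Over 35116 promoter windows of the same length, 3.57% held an ISRE core, 7.66% a GAS core and 5.91% the NF-kB consensus. Of the 9 windows of the checkpoint genes, 2 held an ISRE core, 1 a GAS core and 1, that of *TNFRSF14*, the NF-kB consensus. The windows of *VTCN1* and *CD47*, the other large fall and rise, held none of these motifs. They are printed to show how they differ in composition, 58.7% G and C for *VTCN1* and 79.0% for *CD47* over the whole window, at chr1:117210928-117211177 and chr3:108091032-108091281, both on the minus strand. A match of letters is a description of the window, and binding was not measured.
VTCN1: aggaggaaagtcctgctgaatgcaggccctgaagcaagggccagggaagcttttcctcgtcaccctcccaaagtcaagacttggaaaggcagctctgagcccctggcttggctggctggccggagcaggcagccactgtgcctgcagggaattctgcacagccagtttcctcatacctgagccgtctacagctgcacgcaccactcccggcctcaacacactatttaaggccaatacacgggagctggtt
CD47: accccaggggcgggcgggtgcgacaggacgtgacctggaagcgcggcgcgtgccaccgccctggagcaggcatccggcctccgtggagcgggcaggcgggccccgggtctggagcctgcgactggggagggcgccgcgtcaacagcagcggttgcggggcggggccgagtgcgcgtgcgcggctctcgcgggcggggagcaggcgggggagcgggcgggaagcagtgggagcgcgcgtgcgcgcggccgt

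*PDCD1LG2*, the neighbor of *CD274* on chromosome 9, encodes PD-L2, the other ligand of PD-1. It had 5, 0 and 0 reads in replicates 1 to 3 with scrambled siRNA and 0, 1 and 4 reads in those with *DUSP6* siRNA. Both groups were thus close to 0, and no fold is given. Of the PD-1 ligands, *CD274* was the one with more than a few reads in these cells. The log2 ratio of *CD274* to *PDCD1LG2*, each with 1 added, was 0.36 ± 0.17 in the controls and 1.44 ± 0.13 with *DUSP6* siRNA (SD, n = 3 each). It was not tested because *PDCD1LG2* is under the filter. With *PDCD1LG2* close to 0, the difference of 1.08 repeats the log2 fold change of *CD274* alone, also 1.08.

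*VTCN1* (Entrez gene 79679, chromosome 1 from 117143587 to 117210927, minus strand) encodes B7-H4, a B7 family inhibitor of T cells that is often made by breast cancers. The normalized value was 15.5, 12.7 and 6.21 in replicates 1 to 3 with scrambled siRNA and 2.00, 0.990 and 1.48 in those with *DUSP6* siRNA. The groups did not overlap, although scrambled siRNA replicate 3 held less than the other libraries of its group. The mean fell from 11.5 ± 4.76 to 1.49 ± 0.506 (SD, n = 3 each), 7.68-fold lower as a ratio of the means. The limma log2 fold change was -2.26 (SE 0.28, adjusted p = 3.58e-04), and it was -2.96 with edgeR. Leaving out 1 library at a time gave -2.61 to -2.02. Among the checkpoint genes tested, *VTCN1* had the largest change and *CD274* the largest rise, in opposite directions within the B7 family.

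*CD276* encodes B7-H3, the B7 family member that many solid tumors make. The normalized value was 0.774, 0.958 and 0.518 with scrambled siRNA and 0.687, 0.660 and 0.649 with *DUSP6* siRNA. The *DUSP6* siRNA libraries lay inside the range of the controls. In the fit without a filter the log2 fold change was -0.064 (95% interval -0.28 to 0.15, limma adjusted p = 0.680), and with edgeR the adjusted p was 0.717. The log2 ratio of *CD276* to *VTCN1*, each with 1 added, moved from -2.76 ± 0.49 (SD, n = 3) to -0.56 ± 0.29 (SD, n = 3), without a test because *CD276* is under the filter. *CD276* and *VTCN1* thus stood much closer in value with *DUSP6* siRNA.

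*PVR* and *NECTIN2*, the most abundant of the group, are neighbors on chromosome 19 (from 44643910 to 44666162 and from 44846297 to 44889223, both on the plus strand). Their proteins bind TIGIT, which inhibits T and NK cells, and CD226, which activates them. *PVR* had a normalized value of 58.5, 48.8 and 60.1 with scrambled siRNA and 41.6, 37.4 and 41.4 with *DUSP6* siRNA. Each *DUSP6* siRNA library was below each control. The mean fell from 55.8 ± 6.13 to 40.1 ± 2.38 (SD, n = 3 each), a limma log2 fold change of -0.46 (SE 0.11, adjusted p = 0.00798). *NECTIN2* had 113, 102 and 114 with scrambled siRNA and 110, 100 and 101 with *DUSP6* siRNA. These groups overlapped, and the log2 fold change was -0.080 (95% interval -0.28 to 0.12, limma adjusted p = 0.482), with the sign turned to 0.038 under quantile normalization. The log2 ratio of *PVR* to *NECTIN2* within a library, which does not depend on the scaling between libraries but for the 1 added, was -0.97 ± 0.073 in the controls and -1.35 ± 0.071 with *DUSP6* siRNA (SD, n = 3 each). The difference of -0.38 showed no overlap between the groups (two-sided exact permutation p = 0.1, the smallest possible, and the only pair of the 3 fixed ones in which both genes passed the filter).

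*CD47* (Entrez gene 961, chromosome 3 from 108043091 to 108091031, minus strand) encodes the ligand of SIRPα on macrophages. The normalized value was 13.8, 11.2 and 14.3 in replicates 1 to 3 with scrambled siRNA and 21.7, 23.3 and 21.4 in those with *DUSP6* siRNA. The 3 *DUSP6* siRNA libraries lay close together above the 3 controls. The mean rose 1.69-fold, from 13.1 ± 1.64 (SD, n = 3) to 22.1 ± 0.983 (SD, n = 3), with a limma log2 fold change of 0.72 (SE 0.12, adjusted p = 0.00130). *SIRPA*, the gene of the receptor, was itself expressed in these tumor cells and fell from 205 ± 14.5 to 90.7 ± 4.20 (SD, n = 3 each), a limma log2 fold change of -1.17 (adjusted p = 2.75e-05). *QPCTL*, whose enzyme modifies CD47 so that SIRPα can bind it, had 12.3 with scrambled siRNA and 12.8 with *DUSP6* siRNA as means and was not called (limma adjusted p = 0.736). The ligand transcript rose while that of its receptor in the same cells fell.

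*LGALS9* encodes galectin-9, a secreted lectin that binds TIM-3 on T cells. It had 12, 9 and 6 reads with scrambled siRNA, normalized values of 0.179, 0.172 and 0.0723, and 25, 25 and 24 reads with *DUSP6* siRNA, normalized values of 0.505, 0.306 and 0.371. The groups did not overlap, and edgeR on the reads called it higher, 2.82-fold (adjusted p = 0.00943). Of the 9945 genes under the filter, edgeR called 7.90% higher. The near-identical copies *LGALS9B* and *LGALS9C* on the same chromosome had 2 to 12 and 4 to 16 reads per library, so reads could have been split between them and the value of *LGALS9* is uncertain. Summed over the 3 copies, the normalized value was 0.342, 0.556 and 0.313 with scrambled siRNA and 0.708, 0.489 and 0.742 with *DUSP6* siRNA. For the sum the groups overlapped.

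*TNFRSF14* encodes HVEM, a receptor that also acts as the ligand of BTLA on T cells. The normalized value was 0.134, 0.307 and 0.289 with scrambled siRNA and 0.505, 0.318 and 0.494 with *DUSP6* siRNA, on 9 to 32 reads per library. The groups were separated narrowly, with *DUSP6* siRNA replicate 2 just above the highest control, and neither limma without a filter (log2 fold change 0.21, 95% interval 0.040 to 0.38, adjusted p = 0.0722) nor edgeR (adjusted p = 0.101) called it. Exons of *TNFRSF14-AS1* on the opposite strand cover 13.3% of its exon sequence, and that antisense gene had 2 to 9 reads with scrambled siRNA and 13 to 31 with *DUSP6* siRNA. Reads of the pair may have been confused if they were counted without regard to strand, which leaves the value of *TNFRSF14* uncertain.

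*IDO1*, the tryptophan-degrading enzyme, had 0 reads in each scrambled siRNA library and 2, 0 and 3 reads in those with *DUSP6* siRNA. A count of 0 allows up to 3 reads, a value of 0.0362 to 0.0607 depending on the library, and no library exceeded 3 reads, so *IDO1* was at or under the detection limit in both groups and no fold is given. Such limits cover counting error only.

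**Figure D3:**
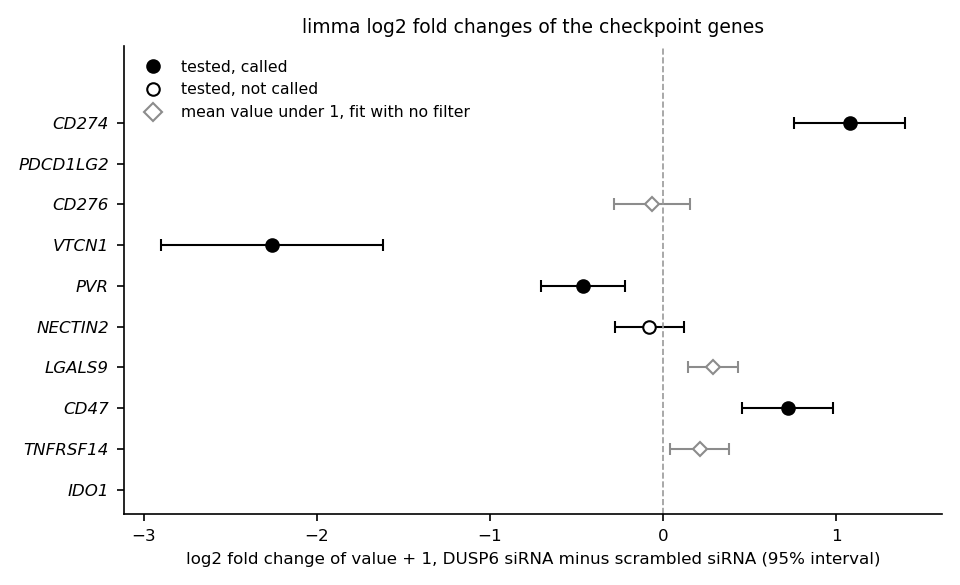
limma log2 fold change of value + 1 (*DUSP6* siRNA minus scrambled siRNA) with its 95% interval for 8 checkpoint genes. Filled circles are tested and called, open circles are tested and not called, and diamonds are genes with a mean value under 1 from the fit without a filter. *CD274* and *CD47* lie to the right, *VTCN1* and *PVR* to the left, and *PDCD1LG2* and *IDO1* have no symbol because they had too few reads.

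The known regulators of PD-L1 were followed as a list of 25 genes, all tested, of which 10 were higher, 5 lower and 10 not called, beside 19.7% of all genes tested called higher and 24.7% lower. Their median log2 fold change was 0.088, against -0.014 over all genes tested. *IRF1*, the factor that binds the ISRE of *CD274*, rose from 7.34 ± 0.239 to 38.7 ± 5.99 (SD, n = 3 each), a limma log2 fold change of 2.24 (adjusted p = 5.41e-06), with 22.9% of its exon sequence shared with the antisense gene *IRF1-AS1*, so its value is uncertain. *STAT2*, a transcription factor of the interferon pathway, rose by 1.51 on the log2 scale and *JAK2*, a kinase of interferon receptors, by 1.15.

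*IRF2*, which competes with IRF1 for the same sites, fell from 25.1 ± 4.77 to 12.7 ± 1.41 (SD, n = 3 each), a limma log2 fold change of -0.92 (adjusted p = 0.00136), and *STAT3* fell by 0.65. The receptor genes *IFNGR1* (log2 fold change 0.088) and *IFNGR2* (-0.051) were not called, and 15.0% of the exon sequence of *IFNGR2* is shared with *TMEM50B* on the opposite strand, so its value is uncertain. *CMTM6*, whose protein protects PD-L1 from lysosomal breakdown, rose from 44.1 ± 4.30 to 72.4 ± 7.27 (SD, n = 3 each), a limma log2 fold change of 0.70 (adjusted p = 0.00110). The exons of *CMTM7* on the opposite strand cover 8.40% of those of *CMTM6*, so its value is uncertain. The ubiquitin ligase adaptor *SPOP* (-0.35) was lower, as was its partner *CUL3* (-0.31), and the deubiquitinase genes *COPS5* (0.54) and *USP22* (0.55) were higher; these proteins are known to lower and to raise PD-L1 protein. *COPS5* and *USP22* share 7.46% and 5.81% of their exon sequence with other genes, so their values are uncertain. The listed regulators did not all move in the direction of more PD-L1 protein. *HIP1R*, whose protein is known to lower PD-L1 protein, was higher (log2 fold change 0.46, limma adjusted p = 0.00819). *CMTM4*, the paralog of *CMTM6*, was not called (-0.15, limma adjusted p = 0.282). The call of *SPOP* was lost without a filter (limma adjusted p = 0.0694), under quantile normalization, in eBayes without a trend and when any 1 library other than scrambled siRNA replicate 3 was left out. That of *CUL3* was lost under quantile normalization and without *DUSP6* siRNA replicate 1 or 3, and in these 3 fits 2 regulators were called lower. The rise of *CD274* thus came with higher *IRF1*, *STAT2* and *JAK2* in the same libraries, while *IRF2* and *STAT3* were lower, and their part in the *CD274* result was not tested. An effect of the *DUSP6* siRNA molecules as such and of the loss of *DUSP6* cannot be told apart.

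**Figure D4:**
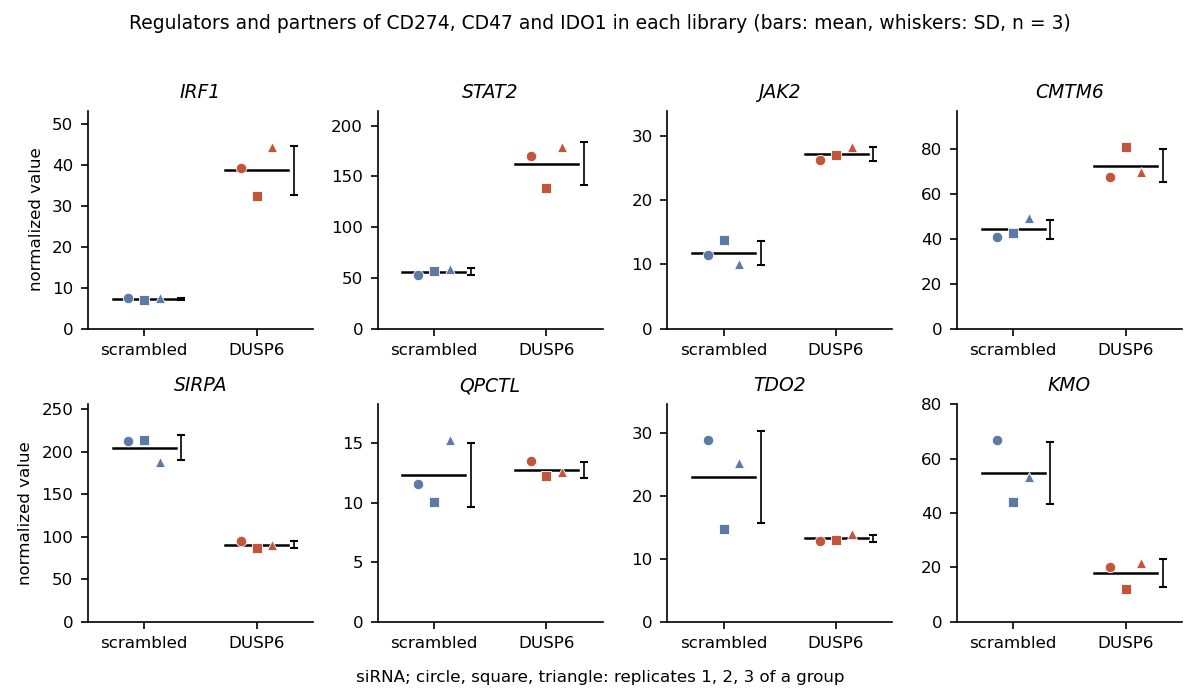
Normalized value (linear axes from 0) in each library of the PD-L1 regulators *IRF1*, *STAT2*, *JAK2* and *CMTM6*, of *SIRPA* and *QPCTL*, which belong to the CD47 axis, and of *TDO2* and *KMO* of the kynurenine pathway. Bars are means and whiskers are 1 SD (n = 3). The upper 4 genes were higher with *DUSP6* siRNA, *SIRPA*, *TDO2* and *KMO* were lower, and *QPCTL* was not called.

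Of the 20 other B7, butyrophilin and costimulatory ligands listed, 18 were in the table and 9 tested, with 5 higher (background 19.7%) and 0 lower (background 24.7%) by limma (1 lower at an unadjusted p under 0.05, and 0 lower by edgeR). *ICOSLG*, the ligand of ICOS, had the lowest log2 fold change among them, -0.36 (limma adjusted p = 0.0588), and was the 1 gene called lower under quantile normalization, in eBayes without a trend or without scrambled siRNA replicate 1. The butyrophilins *BTN3A1* (log2 fold change 2.05), *BTN3A3* (1.83) and *BTN3A2* (1.55), which present phosphoantigen signals to gamma delta T cells, rose most. *BTN3A1* went from 7.38 ± 1.36 to 33.6 ± 5.17 (SD, n = 3 each). These 3 genes are close paralogs whose reads could have been split, so their separate values are uncertain. The T cell costimulator *CD80* had a normalized value of at most 0.0773 in every library, which is uncertain because 24.8% of its exon sequence is shared with *TIMMDC1* on the opposite strand.

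Among 20 other nectins, galectins and inhibitory ligands, 16 were tested, 3 higher and 6 lower, beside 19.7% of all genes tested called higher and 24.7% lower. *NECTIN1* fell from 296 ± 22.0 to 145 ± 4.71 (SD, n = 3 each), a limma log2 fold change of -1.02 (adjusted p = 4.99e-05), and *NECTIN3*, to which PVR and the other nectins can bind, rose from 4.10 ± 0.380 to 9.15 ± 1.02 (SD, n = 3 each), a log2 fold change of 0.99. *NECTIN4* had a log2 fold change of -0.23 and was not called (limma adjusted p = 0.0868), like *NECTIN2*. The galectin genes *LGALS3* (-1.43) and *LGALS1* (-1.04), both encoding lectins that can dampen T cells, were lower. *LGALS3BP*, which encodes a galectin-binding glycoprotein, rose by 2.84 on the log2 scale, and *CEACAM1*, which encodes a ligand of TIM-3 and of itself, by 1.38. Like *CD274*, *CEACAM1* passed the filter only through the *DUSP6* siRNA group, with means of 0.184 and 2.11. The count of genes called higher is therefore no measure of the list. Among the genes called lower, *CD24* lost its call without a filter, under quantile normalization and in eBayes without a trend. Its call was also lost when any 1 library other than scrambled siRNA replicate 1 was left out. Over the alternatives, 1 to 3 genes were higher and 5 to 7 lower.

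The ligands of activating NK cell receptors gave 7 tested genes of 12, with 4 higher (background 19.7%) and 0 lower (background 24.7%) by limma (0 lower at an unadjusted p under 0.05, and 0 lower by edgeR). *RAET1L* (log2 fold change 1.87), *ULBP2* (1.28) and *ULBP1* (0.73), which encode ligands of the receptor NKG2D, rose most. *RAET1L* went from 0.553 ± 0.0661 to 4.76 ± 1.11 (SD, n = 3 each), and it too passed the filter only through the *DUSP6* siRNA group. These paralogs resemble each other closely, so reads could have been split between them. *MICA*, another NKG2D ligand, had a log2 fold change of 0.034 and was not called (limma adjusted p = 0.777). The call of *ICAM1*, also higher, was lost without *DUSP6* siRNA replicate 2 or 3. Over the alternatives, 1 to 5 genes of the list were called higher. As *RAET1L* was tested only through the group where it was high, the count is no measure of the list.

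**Figure D5:**
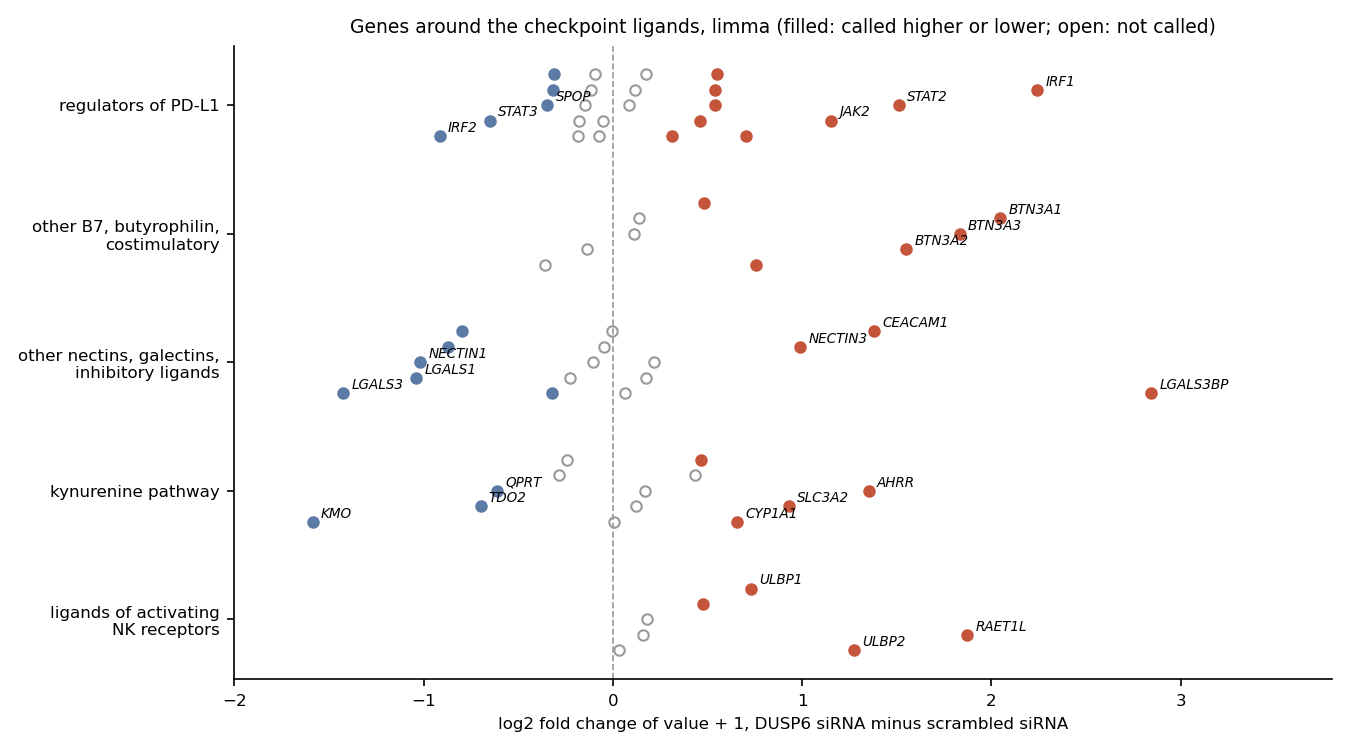
limma log2 fold change of value + 1 (*DUSP6* siRNA minus scrambled siRNA) of the genes shown from 5 lists around the checkpoint ligands. Filled points are called higher (red) or lower (blue), open points are not called, and up to 3 genes per list and direction are named. Among the genes shown, *LGALS3BP* lies farthest to the right and *KMO* farthest to the left.

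Because *IDO1* had almost no reads, the rest of the kynurenine pathway was read on its own. Of 18 listed genes, 13 were tested, with 4 higher and 3 lower, beside 19.7% of all genes tested called higher and 24.7% lower. *TDO2*, which encodes the other tryptophan dioxygenase, had normalized values of 28.9, 14.8 and 25.3 with scrambled siRNA and 12.9, 13.0 and 14.0 with *DUSP6* siRNA. The groups did not overlap, though scrambled siRNA replicate 2 lay close to the *DUSP6* siRNA libraries. Its log2 fold change was -0.70 (SE 0.21, limma adjusted p = 0.0244), a call lost without a filter (limma adjusted p = 0.0619) and when any 1 library other than scrambled siRNA replicate 2 was left out. *KMO*, encoding the monooxygenase that acts on kynurenine, fell from 54.7 ± 11.4 to 17.8 ± 5.24 (SD, n = 3 each), a limma log2 fold change of -1.59 (adjusted p = 6.11e-04), with 28.4% of its exon sequence shared with *OPN3* on the opposite strand, so its value is uncertain. *QPRT*, further down the pathway toward NAD, fell by 0.61. *AHRR*, the repressor of the receptor that kynurenine activates, rose by 1.35, *SLC3A2*, encoding a chain of the tryptophan transporter, by 0.93 and the receptor target *CYP1A1* by 0.66. The call of *CYP1A1* was lost without a filter and when any 1 library other than *DUSP6* siRNA replicate 2 was left out. The number of genes called higher fell to 2 without a filter, and also without scrambled siRNA replicate 2 or without *DUSP6* siRNA replicate 1. Of these dioxygenases, *TDO2* alone exceeded 3 reads in any library.

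Receptors of the checkpoint ligands were looked up among 15 genes of immune cells, of which 11 were in the table and 2 passed the filter. Besides *SIRPA*, this was *PVRIG*, the receptor of nectin-2, at 6.00 with scrambled siRNA and 9.03 with *DUSP6* siRNA as means (log2 fold change 0.54, limma adjusted p = 0.0240). The call of *PVRIG* was lost without a filter (limma adjusted p = 0.0716), without scrambled siRNA replicate 1 and without *DUSP6* siRNA replicate 1 or 2. A read-through transcript of a *PVRIG* pseudogene has a row of its own in the table, so reads could have been split and the value of *PVRIG* is uncertain. *PDCD1*, the gene of PD-1, had at most 1 read per library. *CTLA4*, *CD28*, *TIGIT* and *TMIGD2* had no row in the table and so were not analysed here.

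The tested genes whose pattern over the 6 libraries was closest to that of the 2 most changed checkpoint genes were found by the root mean square difference of log2(value + 1), each gene taken relative to its scrambled siRNA mean. For *CD274* they were *KIF26B* (0.071), *CDC42EP3* (0.098) and *ROCK2* (0.11). For *VTCN1* they were *SH2D4A* (0.16), *FMOD* (0.17) and *BLNK* (0.22). *BLNK* had values of 26.0, 21.7 and 17.5 with scrambled siRNA and 4.10, 2.81 and 3.74 with *DUSP6* siRNA. Because 1 was added, genes of unlike level and fold change can come out close to a low gene such as *CD274*. *ROCK2* had 4.67, 4.41 and 3.48 with scrambled siRNA and 8.35, 9.66 and 9.83 with *DUSP6* siRNA. *KIF26B* had 0.491, 0.537 and 0.229 against 1.84, 1.60 and 2.13. Like *CD274*, *KIF26B* passed the filter only through the *DUSP6* siRNA group.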

How the data were processed

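RNA-sequencing of 6 MDA-MB-453 libraries was used. The authors prepared stranded mRNA libraries, aligned the reads to hg38 with Rsubread and counted them on RefSeq genes at default settings. The deposited table holds linear normalized signal values for each gene in each library. Dividing by the smallest step of a library returned whole reads (100% of values within 0.01 of a whole read), and the steps hold edgeR's TMM scaling. The submitters' processing notes also name bcl2fastq and edgeR.

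Values were compared as log2(value + 1) with limma 3.58.1 in R 4.3.3 (lmFit, eBayes with a trend) for genes whose mean value reached 1. Genes were called at a Benjamini-Hochberg adjusted p under 0.05. On the recovered reads, the quasi-likelihood test of edgeR 4.0.16 called 2459 genes higher and 3245 lower with the same filter. Scripts were tested on simulated data. Positions came from RefSeq on GRCh38.p14, and transcript lengths and exon overlaps from GENCODE on hg38, the build of the authors' alignment. Overlaps were taken with genes that have a row in the table, and shares above 5% made a value uncertain. They were not computed for genes named only as neighbors of *CD274* or *VTCN1*.

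Named were all checkpoint genes and *DUSP6*, from each other list up to 3 genes called higher and 3 called lower with the largest log2 fold changes, the partners, regulators and paralogs of a checkpoint gene, and the 3 genes of closest pattern. Some genes are not reported here by name. Genes of a list outside this rule were chosen after their values were seen. The members and lists were chosen with earlier results of these data known. Alternatives were no filter or a mean value of at least 10, a pseudocount of 0.1, quantile normalization or the median of ratios, no trend, a replicate block, leaving out each library on the same 12862 genes, and edgeR.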

Additional observations from a re-analysis of the deposited data

How the results depend on the processing

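The calls of *CD274*, *VTCN1*, *PVR*, *CD47* and *DUSP6* held under all alternatives in which they were tested. The limma adjusted p was at most 0.0424 (*PVR*, without *DUSP6* siRNA replicate 2). With a mean value of at least 10, 1 checkpoint gene was called higher and 1 lower, because *CD274* and *VTCN1* were no longer tested. Under that filter 9562 genes were tested, of which 1639 were called higher and 2640 lower. Leaving out 1 library at a time, with the tested genes kept as in the full data, gave 2 checkpoint genes higher and 2 lower each time. Of all genes, 1574 (without *DUSP6* siRNA replicate 2) to 3183 were higher and 2306 to 3581 lower. Without any 1 of the *DUSP6* siRNA libraries, the mean of *CD274* was 0.831 to 0.957, under the filter. *CD274* was tested in those fits only because the gene set was kept, so they cannot show that its call survives the filter. Under quantile normalization 2963 genes were higher and 2876 lower, against 2540 and 3179, and *NECTIN2* turned to 0.038; the cause was not tested. With a pseudocount of 0.1, less is added to low values. The log2 ratio of *CD274* to *PDCD1LG2* then differed by 2.22 instead of 1.08, close to the 2.24 of *CD274* alone. That of *CD276* to *VTCN1* differed by 2.70 instead of 2.20. Replicates with the same number did not deviate together (correlations of 0.0050, 0.087 and -0.076), so no pairing by number was seen. With 3 libraries per group these correlations cannot exclude a pairing. With a replicate block, 2495 genes were higher and 3096 lower, and the checkpoint genes kept 2 and 2 calls. In this balanced design a block cannot change a fold change, so that of *DUSP6*, -2.05, is no check. Only standard errors and calls could move. Low counts limit *PDCD1LG2*, *IDO1*, *LGALS9* and *TNFRSF14*, and 3 libraries per group limit every single-gene permutation test.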

Other observations

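The genes within 500 kb of the 2 most changed checkpoint genes were listed after the values of those had been seen. Around *CD274*, 11 genes were in the table and 6 were tested, with 1 higher, 2 lower and 3 not called. The background over all genes tested was 19.7% higher and 24.7% lower. *JAK2*, at a distance of 321 kb, was the one called higher (log2 fold change 1.15, limma adjusted p = 1.68e-04). The closest tested gene, *PLGRKT*, which encodes a plasminogen receptor, lies 12.2 kb away and had normalized values of 18.2, 18.8 and 18.4 with scrambled siRNA and 14.3, 14.9 and 15.0 with *DUSP6* siRNA, a limma log2 fold change of -0.31 (adjusted p = 0.0269), a call lost with a replicate block, in edgeR without a filter and without any 1 of the *DUSP6* siRNA libraries. *ERMP1* was lower by more, with a limma log2 fold change of -1.08 (adjusted p = 4.68e-05). The rise of *CD274* was thus not shared by its closest tested neighbor.

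Around *VTCN1*, 8 genes were in the table and 7 were tested, with 0 higher by limma (0 at an unadjusted p under 0.05, and 0 by edgeR), 3 lower and 4 not called. These counts stand beside 19.7% of all genes tested called higher and 24.7% lower, and so few genes are no measure of the region. *IGSF3* fell from 102 ± 18.4 to 40.6 ± 1.98 (SD, n = 3 each), a limma log2 fold change of -1.29 (adjusted p = 9.95e-05), and *PTGFRN* and *CD101* had log2 fold changes of -0.43 and -0.51. All 3 encode immunoglobulin superfamily proteins, as *VTCN1* does. The nearest tested genes, *TRIM45* (19.7 kb, log2 fold change -0.28) and *TTF2* (36.1 kb, 0.011), both lie at lower coordinates than *VTCN1* and were not called, and neither was *MAN1A2*, the nearest tested gene on the other side (157 kb, 0.031). The call of *CD101* was lost when any 1 library other than scrambled siRNA replicate 3 was left out. The span of *CD101* overlaps that of *LOC101929099*, which has a row of its own. Their shared exon sequence was not computed, so the value of *CD101* is uncertain.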
